A study of Mus musculus with 16 samples.

Results

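The comparison was of the response to loss of Dlx3 between 2 layers of newborn mouse epidermis. Its members were the 8 RNA-seq libraries of the Dlx3 experiment, chosen by their labels, out of 16 libraries in the series. They formed 4 groups of 2 libraries, which were Dlx3 knockout (KO) suprabasal, wild-type (WT) suprabasal, KO basal and WT basal. All 4 groups came from skin epidermis of neonates aged p0 to p2, on a background labelled mix of CD-1 and C57BL/6, and the layers were parted on a Percoll gradient, which sorts cells by buoyant density. The labels do not name the knockout allele, a Cre driver, or how many animals were in a library. Total RNA was sequenced, and levels are in RPKM, a read count per length of the gene and per mapped read.

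Dlx3 is a homeobox transcription factor of the differentiating epidermis and the hair follicle, and mouse hair follicles need it to form the hair shaft and the inner root sheath. Basal keratinocytes sit on the basement membrane and divide. Suprabasal keratinocytes stop dividing, make keratins 1 and 10, and then load the cornified envelope and the lipids that seal the skin barrier. A gene can respond to the loss of Dlx3 in both layers alike, and the interaction is the value that asks whether it did not: the KO minus WT difference in the suprabasal fraction minus the KO minus WT difference in the basal fraction, each on log2 of RPKM plus 1. A positive interaction means that the KO to WT change was more positive in the suprabasal fraction, and a negative one that it was more positive in the basal fraction.

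Estimated depth was 33.9 to 42.0 M (mega) mapped reads per library. Between the 2 libraries of a group the median difference of a gene was 3.41% to 3.77%. The squared difference was a median of 1.32 to 1.77 times what counting alone gives, so the p-values measure a small spread between libraries that may be technical. Krt5, the keratin of basal cells, stood at 3396 and 3373 RPKM in the KO suprabasal and 3863 and 3916 RPKM in the WT suprabasal libraries, so both suprabasal fractions held basal keratin RNA. The 4 markers of the suprabasal layer (Krt77, Elovl1, Lor and Hrnr) summed to 3083 and 2961 RPKM in KO suprabasal, 1692 and 1707 in WT suprabasal, 291 and 290 in KO basal, and 96.9 and 104 in WT basal libraries, higher in the suprabasal than in the basal libraries of either genotype. In such bulk samples fewer cells of a type and less RNA per cell cannot be told apart.

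Most genes that responded differently did so because they changed in the suprabasal fraction and were not called in the basal one. Of 12146 genes tested with limma, 1755 (14.4%) had a positive interaction and 982 (8.08%) a negative one, at a Benjamini-Hochberg adjusted p under 0.05. KO against WT alone called 2620 genes (21.6%) higher and 1911 (15.7%) lower in the suprabasal fraction, against 514 (4.23%) higher and 362 (2.98%) lower in the basal fraction. Among the 2737 genes (22.5%) with a called interaction, 1300 (47.5%) rose and 733 (26.8%) fell in the suprabasal fraction alone, while 69 rose and 112 fell in the basal fraction alone. A further 84 rose in both fractions by more in basal, 54 rose in both by more in suprabasal, and 10 fell in both by more in suprabasal. Changes of opposite sign were called for 136 genes (4.97%), and 238 had a called interaction with neither change called by itself. The interactions were small, with a median size of 0.26 on the log2 scale, 261 genes at 0.5 or more and 30 at 1 or more. Positive calls made up 64.1% of the calls on the RPKM as deposited and 43.7% after quantile normalization, which called 1059 positive and 1362 negative, so the balance of the directions depends on the scaling. The median interaction over all genes tested was 0.03. Without KO basal replicate 1 or WT basal replicate 2 the positive calls were 1109 and 1043. The negative calls were 564 and 548 without those libraries, and 611 and 588 without WT suprabasal replicates 1 and 2. The suprabasal fall was called for 1220 genes without KO suprabasal replicate 1 and for 1247 and 1178 without WT suprabasal replicates 1 and 2. In basal libraries the rise was called for 332 genes without WT basal replicate 1, and the fall for 118, 193, 158 and 117 without KO basal replicates 1 and 2 and WT basal replicates 1 and 2.

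**Figure D1:**
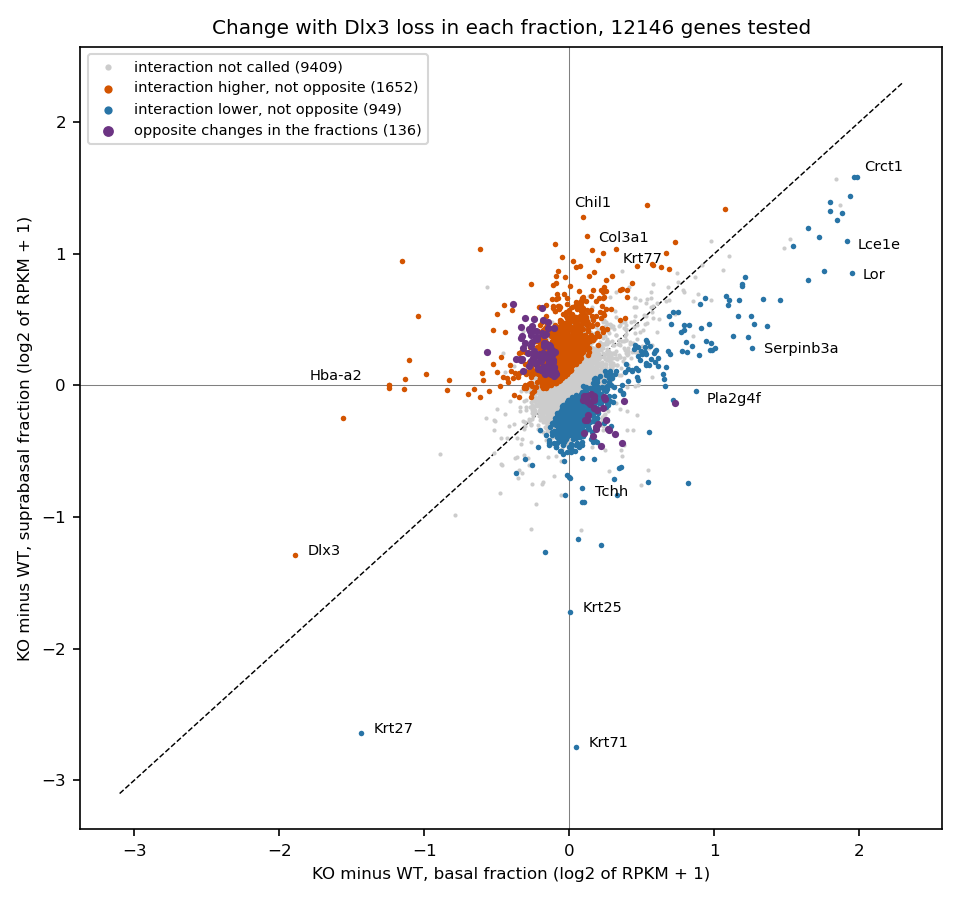
Each point is 1 of the 12146 genes tested, with the KO minus WT change in the basal fraction on the x axis and in the suprabasal fraction on the y axis, both as log2 of RPKM plus 1. On the dashed line the changes are equal. Krt71 and Krt25 lie straight below zero, Lor and Serpinb3a to the right below the line, Col3a1 and Chil1 straight above zero, and Hba-a2 to the left at the height of zero.

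The plot of both changes shows these classes as arms. The long arm to the right, where genes rose in both fractions, bends below the line of equal change, and the 136 genes with opposite changes lie close to the origin in 2 corners.

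Dlx3 itself checked the labels and fell in both fractions. It stood at 2.64 and 2.24 RPKM in KO suprabasal against 7.87 and 6.92 in WT suprabasal libraries, and at 2.35 and 2.16 in KO basal against 11.2 and 11.01 in WT basal libraries. The KO level was 33.0% of WT in suprabasal libraries and 20.3% of WT in basal libraries, and the interaction was 0.60 ± 0.10 (SE; adjusted p = 0.00433). Dlx3 was the 1 gene that fell in both fractions by more in basal. The KO pairs of both fractions stood at similar levels, while the WT basal pair stood above the WT suprabasal pair. Of the 4 Dlx genes tested (Dlx3, Dlx4, Dlx5 and the antisense RNA Dlx4os), Dlx3 alone had a called interaction. Without KO basal replicate 1 the interaction of Dlx4 was −0.01 in place of a positive value that was not called either.

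The 2 largest negative interactions belonged to Krt71 and Krt25, keratins of the inner root sheath, the sleeve of the hair follicle that moulds the growing hair shaft. Krt71, a type II keratin of that sheath, had 0.24 and 0.26 RPKM in KO suprabasal against 7.80 and 6.96 in WT suprabasal libraries, and 0.14 and 0.10 in KO basal against 0.09 and 0.08 in WT basal libraries. Its level was high in the WT suprabasal pair alone and close to absent in the other 6 libraries. The interaction was −2.79 ± 0.10 (adjusted p = 6e-06), made of a fall of 2.75 in suprabasal and an uncalled change of 0.05 in basal libraries. Krt25, a type I partner, behaved likewise, with 0.18 and 0.20 RPKM in KO suprabasal against 2.94 and 2.89 in WT suprabasal libraries, and at most 0.04 in every basal library (interaction −1.72 ± 0.09, adjusted p = 2.9e-05). Where WT basal libraries held almost none of the RNA, no fall could be measured there. For Krt71 and Krt25 a response in 1 layer and expression in 1 layer cannot be told apart.

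Krt27, another type I keratin of the sheath, had RNA in both WT fractions, as did Krt73. It had 0.22 and 0.24 RPKM in KO suprabasal against 6.54 and 6.84 in WT suprabasal libraries, and 0.13 and 0.13 in KO basal against 2.1 and 2.02 in WT basal libraries. KO was 3.47% of WT in suprabasal and 6.32% of WT in basal libraries, so both fractions lost most of it, and both falls were called. The interaction of −1.21 ± 0.08 (adjusted p = 6e-05) on the log2 scale thus came with near-complete loss in each layer. Krt28 had 0.39 and 0.34 RPKM in KO suprabasal against 1.43 and 1.44 in WT suprabasal libraries, with 0.21 to 0.25 in the 4 basal libraries (interaction −0.81 ± 0.09, adjusted p = 0.00073). Krt73 kept more RNA, at 3.22 and 2.75 RPKM in KO suprabasal against 5.37 and 5.22 in WT suprabasal libraries, and 1.35 and 1.34 in KO basal against 2.12 and 1.94 in WT basal libraries. Its interaction of −0.30 (adjusted p = 0.047) was lost under 9 of 15 alternative settings. Krt72, below the filter, had 0.01 and 0 RPKM in KO suprabasal against 0.75 and 1.08 in WT suprabasal libraries.

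Summed, the 6 keratins had 4.27 and 3.78 RPKM in KO suprabasal, 24.8 and 24.4 in WT suprabasal, 1.87 and 1.81 in KO basal, and 4.56 and 4.34 in WT basal libraries. Trichohyalin (Tchh), the protein that hardens the inner root sheath, had 6.47 and 6.20 RPKM in KO suprabasal against 11.4 and 11.8 in WT suprabasal libraries, and 3.11 and 2.89 in KO basal against 2.67 and 2.85 in WT basal libraries. Its KO and WT libraries were apart in suprabasal cells, and in basal cells the change of 0.09 was not called (interaction −0.87 ± 0.07, adjusted p = 0.000152).

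Promoters of Krt71, Krt25 and Krt27 are given as the genes with the largest fall in suprabasal libraries, beside that of Lor, the gene with the largest difference among the cornified envelope genes. The sequences are the 250 bases before the start site from RefSeq on GRCm38.p6, the patched form of mm10. They lie at chr15:101743098-101743347, chr11:99322952-99323201, chr11:99351119-99351368 and chr3:92083143-92083392, all on the minus strand. Capitals in the 3 keratin promoters mark TAATT or its reverse complement AATTA, the core that many homeodomain proteins bind, and in the Lor promoter the AP-1 motif TGANTCA.
Krt71: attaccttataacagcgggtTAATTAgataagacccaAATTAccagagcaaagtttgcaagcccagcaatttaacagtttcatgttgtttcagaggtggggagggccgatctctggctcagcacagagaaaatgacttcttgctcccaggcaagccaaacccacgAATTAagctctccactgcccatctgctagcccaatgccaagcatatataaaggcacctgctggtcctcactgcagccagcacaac
Krt25: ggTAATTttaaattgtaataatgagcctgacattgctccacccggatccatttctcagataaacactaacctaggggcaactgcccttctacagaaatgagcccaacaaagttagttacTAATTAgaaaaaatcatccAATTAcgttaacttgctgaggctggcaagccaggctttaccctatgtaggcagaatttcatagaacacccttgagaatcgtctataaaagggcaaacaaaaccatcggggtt
Krt27: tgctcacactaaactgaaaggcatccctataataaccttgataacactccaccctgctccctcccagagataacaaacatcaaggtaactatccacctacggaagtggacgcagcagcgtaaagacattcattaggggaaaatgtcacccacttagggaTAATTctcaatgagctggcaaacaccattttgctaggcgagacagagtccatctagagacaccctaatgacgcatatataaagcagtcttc
Lor: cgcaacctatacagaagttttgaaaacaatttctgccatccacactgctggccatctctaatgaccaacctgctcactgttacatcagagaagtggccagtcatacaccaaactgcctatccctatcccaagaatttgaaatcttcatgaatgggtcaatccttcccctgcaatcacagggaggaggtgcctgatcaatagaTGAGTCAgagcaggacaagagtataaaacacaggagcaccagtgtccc

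In windows of 250 bases before to 50 after the start site, searched on both strands with overlaps kept, all 6 keratins had at least 1 match to TAATT, from 1 in Krt27 to 5 in Krt28 and Krt73. The motif was present in 27% of 32851 RefSeq promoters and in 16.3% of the promoters of the genes tested. Of 11 other genes searched, C1qb had 1 match, and Tchh, Lor, Hrnr, Krt77, Elovl1, Flg2, C1qc, Pla2g4f, Serpinb3a and Chil1 had none in the window. The Lor window held TGAGTCA 48 bases before the start site, and TGANTCA was present in 7.8% of all promoters. The matches describe the letters only and were not tied to the values. Keratin genes of a cluster arose by duplication, so their promoters are not independent of each other.

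Several genes of the granular layer and the cornified envelope, among them Lor, Hrnr, Flg2 and Krt78, rose in KO in both fractions. They rose by a larger factor in basal, which gave negative interactions. Loricrin (Lor), the most abundant protein of the envelope, had 2472 and 2344 RPKM in KO suprabasal against 1320 and 1341 in WT suprabasal libraries, and 241 and 239.6 in KO basal against 58.5 and 64.5 in WT basal libraries. KO was 1.81 times WT in the suprabasal and 3.91 times WT in the basal fraction, and the interaction was −1.10 ± 0.06 (adjusted p = 3.4e-05). On the linear scale the order was the reverse, with a gain of 1078 RPKM in suprabasal and of 179 RPKM in basal libraries, since the basal level remained 9.98% of the suprabasal level in KO and 4.62% in WT. Hornerin (Hrnr), a fused-type S100 protein, had 113 and 115 RPKM in KO suprabasal against 71.8 and 71.6 in WT suprabasal libraries, and 4.04 and 3.95 in KO basal against 0.93 and 1.03 in WT basal libraries (interaction −0.68 ± 0.05, adjusted p = 9.6e-05). Flg2, a relative of Hrnr, had 74.3 and 72.9 RPKM in KO suprabasal against 53.0 and 52.8 in WT suprabasal libraries, and 5.03 and 4.14 in KO basal against 1.27 and 1.33 in WT basal libraries (interaction −0.81 ± 0.09, adjusted p = 0.000676). In each of these genes the libraries of the 4 groups did not overlap.

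Krt78, a keratin of the upper epidermis, gave the widest ratio among them. It had 135 and 129 RPKM in KO suprabasal against 84.3 and 83.4 in WT suprabasal libraries, and 3.93 and 3.44 in KO basal against 0.66 and 0.76 in WT basal libraries. KO was thus 1.58 times WT in the suprabasal and 5.19 times WT in the basal fraction (interaction −0.80 ± 0.07, adjusted p = 0.000293). Hal, which makes urocanate from histidine, was 1.69 times WT in suprabasal and 3.58 times WT in basal KO libraries. Casp14, the caspase of cornification, was 1.18 times and 1.996 times WT. The adjusted p of their interactions were 0.000328 and 0.000238.

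Pla2g4f and Cyp2b19 rose in the basal fraction with no rise called in the suprabasal one. Serpinb3a and Ly6g6c rose in both fractions, by a larger factor in basal. Pla2g4f, a cytosolic phospholipase, had 77.8 and 77.5 RPKM in KO suprabasal against 80.9 and 78.9 in WT suprabasal libraries, and 5.86 and 5.805 in KO basal against 2.78 and 2.68 in WT basal libraries (interaction −0.91 ± 0.04, adjusted p = 1.2e-05). Cyp2b19, a keratinocyte cytochrome P450 of arachidonate metabolism, had 73.9 and 75.7 RPKM in KO suprabasal against 79.7 and 81.8 in WT suprabasal libraries, and 1.41 and 1.55 in KO basal against 0.46 and 0.57 in WT basal libraries (interaction −0.82 ± 0.06, adjusted p = 0.000132). Both are RNAs of the suprabasal layer, with a WT basal level of 3.42% and 0.64% of the suprabasal one. Serpinb3a, a protease inhibitor with near-identical neighbours whose reads are hard to tell apart, had 119 and 122 RPKM in KO suprabasal against 97.5 and 101 in WT suprabasal libraries, and 6.25 and 6.33 in KO basal against 2.04 and 2.05 in WT basal libraries (interaction −0.98 ± 0.04, adjusted p = 1.2e-05). Ly6g6c, a small surface protein of the Ly6 family, was 1.29 times WT in suprabasal and 2.49 times WT in basal KO libraries (interaction −0.86).

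**Figure D2:**
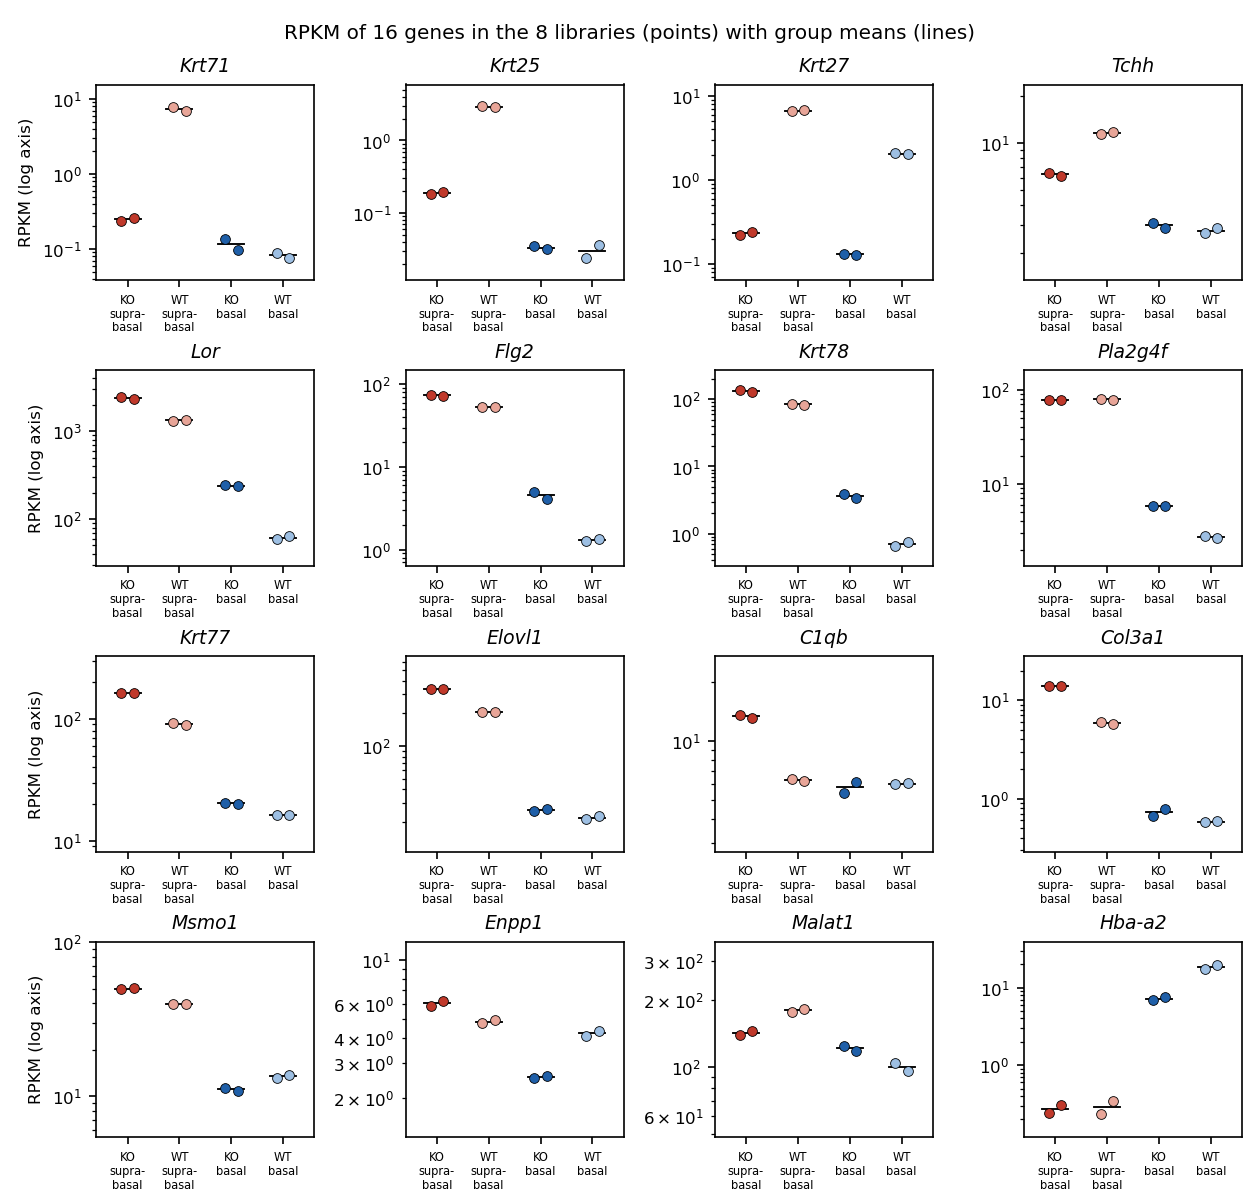
RPKM of 16 genes on log axes, with 2 libraries (points) and their mean (line) for KO suprabasal, WT suprabasal, KO basal and WT basal. Krt71 and Krt25 are high in the WT suprabasal pair alone, Lor, Flg2 and Krt78 show a wider gap between KO and WT in the basal than in the suprabasal fraction, and Enpp1 and Malat1 change in opposite directions.

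Among all genes tested, 8.08% had a negative and 14.4% a positive interaction. Over the list of 36 granular and cornified genes tested, 18 had a negative and 6 a positive interaction, with a median of −0.12 against 0.03 over all genes. The median was −0.34 with a pseudocount of 0.1, where 3 were positive, and −0.26 after quantile normalization, and on linear RPKM 29 members gained more in suprabasal and 7 in basal libraries. By median the list rose alike in both layers, by 0.345 in suprabasal and 0.344 in basal libraries. Its median basal level was 21.3% of the suprabasal level in KO and 21.0% in WT. In suprabasal libraries 29 members were higher (2, Tchh and Ctsc, were lower), and in basal libraries 28 were higher. The split followed how much of the RNA the WT basal fraction held. Of 14 members whose WT basal level was under 5% of the WT suprabasal level, all 14 had a larger basal share in KO, by 1.17 to 3.30 times with a median of 2.20. Of the 22 others, 13 had a larger share, with a median of 1.07 times. Because a WT value below its true level would lower the WT share and raise the ratio, this is a description with no test. Asprv1, a protease that processes profilaggrin, went the other way, with KO at 1.85 times WT in suprabasal and 1.62 times WT in basal libraries (interaction 0.20 ± 0.03, adjusted p = 0.0052). Cdsn, which joins corneocytes, rose by 1.10 in suprabasal and 0.97 in basal libraries, and its interaction was not called (adjusted p = 0.231). Ivl, another envelope precursor, rose by 0.71 and 0.79, and its interaction was not called either (adjusted p = 0.644). Its KO level was 1.65 times WT in suprabasal and 2.39 times WT in basal libraries. With a pseudocount of 0.1 its interaction was −0.48 and still not called by limma (adjusted p = 0.0969).

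The late cornified envelope genes (Lce), small proteins of the outer envelope, rose in both fractions, with 15 of 15 members tested called higher in each. Their median change was 1.11 in suprabasal and 1.795 in basal libraries, and 9 had a negative interaction with none positive (4 without the filter on low values). Lce1h had 5.48 and 4.79 RPKM in KO suprabasal against 2.16 and 2.58 in WT suprabasal libraries, and 9.53 and 10.7 in KO basal against 2.11 and 2.46 in WT basal libraries (interaction −0.89 ± 0.12, adjusted p = 0.00196). Here the basal fraction held as much RNA as the suprabasal one, and the highest level of all was in the KO basal pair. The median basal level was 130% of the suprabasal level in KO and 85.6% in WT, and 15 of 15 members gained more RPKM in basal than in suprabasal libraries. The Lce group is thus unlike Lor, where the larger gain in RPKM was suprabasal. The Lce1 genes are near-identical, and reads may have been shared among them.

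Small proline-rich genes (Sprr) rose in 7 of 8 members in each fraction, and Sprr1a and Sprr1b had a negative interaction, with 1 such call without KO suprabasal replicate 1, KO basal replicate 1 or WT basal replicate 2. Sprr1a had 54.4 and 58.5 RPKM in KO suprabasal against 42.9 and 43.6 in WT suprabasal libraries, and 9.15 and 10.5 in KO basal against 4.13 and 3.78 in WT basal libraries (interaction −0.75 ± 0.09). Crct1, a gene of the same epidermal differentiation complex, was 3.13 times WT in suprabasal and 4.32 times WT in basal KO libraries (interaction −0.38, adjusted p = 0.00315).

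The spinous keratins Krt1 and Krt10 gave the same order with small changes at very high levels. Krt77, also on the spinous list, went the other way and is described below. Krt1 had 20940 and 20970 RPKM in KO suprabasal against 18800 and 18870 in WT suprabasal libraries, and 2312 and 2333 in KO basal against 1579 and 1586 in WT basal libraries. Its interaction was −0.40 ± 0.03 (adjusted p = 0.000152), and that of Krt10, its partner, −0.36 ± 0.03 (adjusted p = 0.000236). Both calls were lost when the filter on low values was left out (adjusted p = 0.0551 and 0.0963). Over all genes tested, 8.08% had a negative and 14.4% a positive interaction. Of 22 spinous genes, 9 had a negative and 2 a positive interaction. Of 15 desmosome genes, the cell adhesion plaques, 7 were negative and 1 positive, among the negative ones the desmocollin Dsc1 with a KO to WT ratio of 1.204 in suprabasal and 2.15 in basal libraries. After quantile normalization 14 spinous and 12 desmosome genes were negative, and the 1 positive desmosome call was lost then, without the filter, without the intensity trend, and without any 1 library other than KO basal replicate 2 and WT basal replicate 1.

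**Figure D3:**
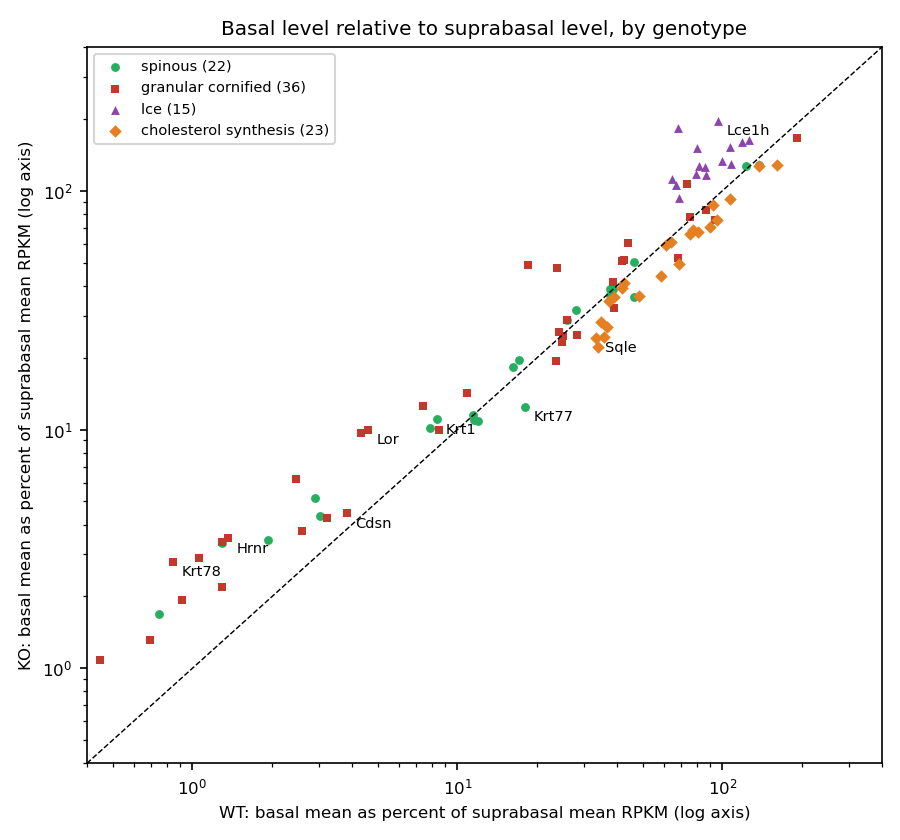
Basal mean RPKM as a percent of the suprabasal mean, in KO (y axis) against WT (x axis), both on log axes, for genes of 4 lists, with the dashed line marking equal shares. All 15 Lce genes and the genes with WT shares under 5% lie above the line, Krt77 and the 23 cholesterol synthesis genes below it.

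Krt77 and Elovl1, 2 of the 4 suprabasal markers, responded in the other direction from Lor and Hrnr. Krt77, a suprabasal keratin, had 164 and 162 RPKM in KO suprabasal against 92.4 and 89.5 in WT suprabasal libraries, and 20.4 and 20.2 in KO basal against 16.3 and 16.4 in WT basal libraries (interaction 0.54 ± 0.03, adjusted p = 6e-05). Elovl1, which elongates saturated fatty acids for ceramides, had 335 and 339 RPKM in KO suprabasal against 207 and 205 in WT suprabasal libraries, and 25.2 and 26.5 in KO basal against 21.1 and 22.4 in WT basal libraries (interaction 0.47 ± 0.05, adjusted p = 0.000413). KO was about as far above WT in suprabasal libraries for these genes (1.79 and 1.63 times) as for Lor (1.81 times), while in basal libraries it was 1.24 and 1.19 times WT against 3.91 times for Lor. The KO to WT ratio in basal libraries thus differed among these markers. Their WT basal level was also a different share of the WT suprabasal level, at 17.97% for Krt77, 10.56% for Elovl1 and 4.62% for Lor. An amount added to unequal basal levels changes them by unequal factors, so the ratios cannot show whether the markers shared a shift. Whether suprabasal cells in the basal fractions had a part in the basal levels of these or other suprabasal genes was not tested.

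By their median interaction of 0.15, against 0.03 over all genes, genes of barrier lipids leaned the way of Elovl1. Of 40 tested, 18 had a positive and 9 a negative interaction, against 14.4% and 8.08% of all genes tested. Both directions were thus called more often than over all genes, where 64.1% of the calls were positive. Smpd1, an acid sphingomyelinase, had 48.3 and 49.7 RPKM in KO suprabasal against 30.1 and 31.2 in WT suprabasal libraries, with 7.81 to 8.86 over the 4 basal libraries (interaction 0.67 ± 0.08, adjusted p = 0.000888). Slc27a4, a fatty acid transporter, had 44.1 and 43.2 RPKM in KO suprabasal against 30.8 and 31.4 in WT suprabasal libraries, with 10.8 to 11.9 in the basal libraries. Smpd1 and Slc27a4 each separated KO from WT in suprabasal libraries and overlapped in basal ones. Scd1, the stearoyl-CoA desaturase, fell in basal libraries alone, with 7.76 and 7.87 RPKM in KO basal against 11.2 and 10.96 in WT basal libraries. The 9 negative genes included the lipoxygenase Aloxe3 (ratio 1.23 in suprabasal and 3.71 in basal) and the elongase Elovl4 (1.199 and 1.81).

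Of 23 cholesterol synthesis genes tested, 14 had a positive interaction and none a negative one, with 12 rising and 1 falling in suprabasal libraries, and 13 falling and none rising in basal libraries. Msmo1, a sterol oxidase, had 49.7 and 50.4 RPKM in KO suprabasal against 39.8 and 39.6 in WT suprabasal libraries, and 11.3 and 10.8 in KO basal against 13.2 and 13.7 in WT basal libraries (interaction 0.59 ± 0.05, adjusted p = 0.000152). Sqle, which makes the squalene epoxide, had 81.2 and 82.0 RPKM in KO suprabasal against 68.3 and 69.8 in WT suprabasal libraries, and 19.6 and 20.0 in KO basal against 23.2 and 23.0 in WT basal libraries (interaction 0.45 ± 0.03, adjusted p = 0.000132). Mvd and Fdft1 changed in the same opposite ways. The basal share of the level was lower in KO for 23 of 23 genes, with a median of 49.5% in KO and 61.1% in WT. The list had 12 to 14 positive calls on the RPKM as deposited, after median-ratio rescaling and after quantile normalization.

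Among genes with a group mean of at least 5 RPKM, the 12 called ones with the largest positive interaction were the histone Hist1h2af, 6 globin genes, Chil1, Sox18, C1qb, Col3a1 and Tmem119. Reads may have been shared among the globins, as described below. C1qb, a complement chain made by macrophages, had 13.6 and 13.1 RPKM in KO suprabasal against 6.35 and 6.25 in WT suprabasal libraries, and 5.41 and 6.18 in KO basal against 5.98 and 6.07 in WT basal libraries (interaction 1.03 ± 0.07, adjusted p = 0.000117). The KO suprabasal pair stood above the other 6 libraries. Over the 20 Langerhans and myeloid markers tested, of 22 in the table, 15 had a positive interaction and none a negative one, with a median of 0.46. In suprabasal libraries 18 rose, and in basal libraries 2 fell and none rose. The MHC class II gene H2-Aa had 49.8 and 49.8 RPKM in KO suprabasal against 32.2 and 31.0 in WT suprabasal libraries, and 39.1 and 40.1 in KO basal against 36.7 and 38.1 in WT basal libraries (interaction 0.56 ± 0.04). Summed, the list was at 402 and 401 RPKM in KO suprabasal, 280 and 278 in WT suprabasal, 303 and 308 in KO basal, and 309 and 316 in WT basal libraries. Cd207 (langerin), which defines Langerhans cells, had 1.84 and 2.04 RPKM in KO suprabasal against 1.29 and 0.996 in WT suprabasal libraries, and its interaction was not called (0.29, adjusted p = 0.144).

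Most fibroblast markers tested also had positive interactions. Col3a1, a collagen of dermal fibroblasts, had 14.1 and 14.1 RPKM in KO suprabasal against 5.95 and 5.77 in WT suprabasal libraries, and 0.67 and 0.78 in KO basal against 0.58 and 0.59 in WT basal libraries (interaction 1.01 ± 0.07, adjusted p = 8.9e-05). Col1a1 had 4.81 and 4.87 RPKM in KO suprabasal against 2.21 and 2.06 in WT suprabasal libraries, with 0.28 to 0.34 in the basal libraries. Pdgfra, a defining receptor of fibroblasts below the filter, had 0.67 and 0.70 RPKM in KO suprabasal against 0.31 and 0.30 in WT suprabasal libraries, and at most 0.05 in the basal libraries. Of 12 fibroblast markers tested, of 18 in the table, 11 had a positive interaction, with Postn the 1 negative. Vim, the filament of mesenchymal and white blood cells, changed in opposite ways, with 83.4 and 84.0 RPKM in KO suprabasal against 61.3 and 61.8 in WT suprabasal libraries, and 101 and 103 in KO basal against 109 and 110 in WT basal libraries. The summed fibroblast list, most of it Vim and Postn, differed little, at 322 and 330 RPKM in KO suprabasal, 309 and 306 in WT suprabasal, 496 and 508 in KO basal, and 538 and 538 in WT basal libraries. Endothelial and mural markers had 1 positive call among 3 tested of 14, and their defining genes Pecam1 and Cdh5 were at 0.21 RPKM or less in every library. Sox18, an endothelial and follicle transcription factor, had 7.02 and 7.33 RPKM in KO suprabasal against 3.13 and 2.67 in WT suprabasal libraries, with 1.21 to 1.48 in the basal libraries (interaction 1.17 ± 0.09, adjusted p = 0.000166). Chil1, a chitinase-like protein, had 10.6 and 10.6 RPKM in KO suprabasal against 3.68 and 3.87 in WT suprabasal libraries, with at most 0.34 in the basal libraries (interaction 1.19 ± 0.10). What part these cell types had in the other differences was not tested.

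Globins gave positive interactions by falling in basal libraries. Hba-a2 had 0.24 and 0.30 RPKM in KO suprabasal against 0.24 and 0.35 in WT suprabasal libraries, and 6.88 and 7.47 in KO basal against 17.3 and 19.5 in WT basal libraries (interaction 1.22 ± 0.10, adjusted p = 0.000183). All 6 erythroid genes tested, each a globin, had a positive interaction. The sum of all 11 erythroid genes listed, most of it globin, was 0.91 and 1.21 RPKM in KO suprabasal, 0.96 and 1.26 in WT suprabasal, 43.9 and 44.2 in KO basal, and 99.6 and 106 in WT basal libraries. Globin RNA was thus almost all in the basal fraction and was lower there in KO. Slc4a1, a membrane protein of red cells, was at 0.08 RPKM or less in every library. Alas2, an erythroid gene below the filter, had 0.40 and 0.41 RPKM in KO basal against 0.71 and 0.71 in WT basal libraries. In suprabasal libraries it had 0.12 and 0.10 RPKM in KO and 0.14 and 0.20 in WT. Cd3g, a T cell receptor chain, followed the globins, with 1.60 and 1.70 RPKM in KO suprabasal against 1.88 and 1.57 in WT suprabasal libraries, and 1.25 and 1.29 in KO basal against 3.10 and 3.03 in WT basal libraries (interaction 0.80 ± 0.09, adjusted p = 0.00073). Of 4 T cell genes tested, of 13 in the table, 2 were called, and Cd3e, below the filter, had 0.35 and 0.40 RPKM in KO suprabasal, 0.58 and 0.61 in WT suprabasal, 0.37 and 0.45 in KO basal, and 0.86 and 1.25 in WT basal libraries. Hbb-b2 and Hbb-bt had the same value in every library, so these 2 cannot be told apart, and the erythroid sum holds the value of both. The suprabasal KO to WT ratio was the same for Hba-a1 and Hba-a2 (0.9345), and for Hbb-b1 and Hbb-bs (1.907). Reads may have been shared in these pairs too, so the 6 globins are not 6 separate measurements.

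Of 13 melanocyte genes tested, 7 were positive and none negative, against 14.4% and 8.08% of all genes tested. Dct, a pigment enzyme, had 48.9 and 51.6 RPKM in KO suprabasal against 32.7 and 31.2 in WT suprabasal libraries, and 53.4 and 55.3 in KO basal against 47.3 and 48.2 in WT basal libraries (interaction 0.46 ± 0.05, adjusted p = 0.00063). Of 5 mast cell, muscle and Merkel cell genes, 2 keratins of simple epithelia and Merkel cells had a negative interaction, Krt8 (−0.59) and Krt20.

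Hair follicle genes went both ways, with 13 positive and 8 negative among 31, against 14.4% and 8.08% of all genes tested. The 8 negative members were inner root sheath keratins, Tchh, Krt79 and Gata3, and the positive members included Lhx2, Shh and the companion layer keratin Krt75. Lhx2, a homeobox factor of follicle progenitors, had 26.0 and 25.5 RPKM in KO suprabasal against 17.5 and 18.4 in WT suprabasal libraries, and 44.4 and 45.9 in KO basal against 51.1 and 51.4 in WT basal libraries (interaction 0.68 ± 0.04, adjusted p = 6e-05). Shh, the hedgehog ligand of the follicle, had 12.3 and 12.6 RPKM in KO suprabasal against 10.2 and 9.63 in WT suprabasal libraries, and 35.8 and 35.8 in KO basal against 38.8 and 40.1 in WT basal libraries (interaction 0.44 ± 0.05, adjusted p = 0.00073). Lhx2, Shh, Tbx1, Bmp4 and Edar rose in suprabasal and fell in basal libraries. Lgr5, Hoxc13 and Krt75 rose in suprabasal libraries alone, with interactions of 0.58, 0.61 and 0.56. Sebaceous gland genes had 6 positive and 1 negative call among 10.

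Opposite changes were called for 103 genes that rose in suprabasal and fell in basal libraries and for 33 that did the reverse. Tmem119, a membrane protein of osteoblasts and microglia, had 4.88 and 5.32 RPKM in KO suprabasal against 2.84 and 3.11 in WT suprabasal libraries, and 2.13 and 2.11 in KO basal against 2.99 and 3.17 in WT basal libraries (interaction 1.002 ± 0.079, adjusted p = 0.000153). Enpp1, which makes pyrophosphate, had 5.84 and 6.18 RPKM in KO suprabasal against 4.78 and 4.95 in WT suprabasal libraries, and 2.51 and 2.57 in KO basal against 4.11 and 4.38 in WT basal libraries (interaction 0.82 ± 0.07). Laptm5, a lysosomal protein of blood cells, Fbln2 and Col14a1, both of the connective tissue matrix, and the serpin Serpinb7 were of the same class.

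The reverse class included 2 long nuclear RNAs. Malat1 had 139.6 and 145 RPKM in KO suprabasal against 177 and 183 in WT suprabasal libraries, and 124 and 118 in KO basal against 104 and 96.1 in WT basal libraries (interaction −0.61 ± 0.06, adjusted p = 0.00035). Neat1, the RNA of paraspeckles, had 36.4 and 36.4 RPKM in KO suprabasal against 44.9 and 45.0 in WT suprabasal libraries, and 19.1 and 18.3 in KO basal against 16.2 and 16.1 in WT basal libraries (interaction −0.49 ± 0.04, adjusted p = 0.000152). Skint7, of an epidermal family related to butyrophilins, had 12.1 and 11.6 RPKM in KO suprabasal against 16.1 and 16.7 in WT suprabasal libraries, and 3.63 and 3.65 in KO basal against 2.74 and 2.46 in WT basal libraries (interaction −0.80 ± 0.07). Ano7, Lgals4, Perm1 and Serpinb3b had the same pair of directions. Fosl2, an AP-1 subunit, did too (interaction −0.34). The count of opposite genes was 45 to 92 when a library was left out, and each library other than KO suprabasal replicate 2 moved it by more than 1.5 times (85 without KO suprabasal replicate 1, 78 and 76 without WT suprabasal replicates 1 and 2, 53 and 79 without KO basal replicates 1 and 2, and 69 and 45 without WT basal replicates 1 and 2).

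Regulators of the epidermis were split, with 10 positive and 12 negative interactions among 57 (7 negative without KO suprabasal replicate 1 and 6 without WT basal replicate 2). In the main fit the positive share of these regulators was near the 14.4% of all genes tested, and the negative share was above the 8.08%. Cebpb, a factor of differentiation, rose in suprabasal libraries alone, with 103 and 99.5 RPKM in KO suprabasal against 68.9 and 70.4 in WT suprabasal libraries, and 25.8 and 29.2 in KO basal against 25.4 and 25.3 in WT basal libraries (interaction 0.42, adjusted p = 0.00442). Grhl1, a grainyhead factor of the upper layers, had 66.0 and 68.0 RPKM in KO suprabasal against 62.1 and 62.7 in WT suprabasal libraries, and 13.6 and 13.8 in KO basal against 10.2 and 10.3 in WT basal libraries (interaction −0.28, adjusted p = 0.00164). Notch1 fell slightly in suprabasal and rose slightly in basal libraries. Of 23 AP-1 and immediate early genes, 5 were positive and 2 negative, against 14.4% and 8.08% of all genes tested. Their median was 0.015 against 0.025 over all genes. Among them, Junb was at 38.7 and 38.2 RPKM in KO suprabasal against 26.6 and 28.2 in WT suprabasal libraries, and 21.5 and 21.5 in KO basal against 19.3 and 20.4 in WT basal libraries.

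Of 32 basal keratinocyte genes tested, 15 fell and 6 rose in suprabasal libraries. A negative interaction was called for 13 of them and a positive one for 5, against 8.08% and 14.4% of all genes tested. Their median was −0.10. After quantile normalization 21 were negative and 2 positive, with a median of −0.22. The 5 positive calls were 2 without KO suprabasal replicate 2, WT suprabasal replicate 2 or KO basal replicate 1, and 3 without WT basal replicate 2. Krt5 had an interaction of −0.20 ± 0.03 (adjusted p = 0.00534) and was 0.00 after quantile normalization. Krt15, a keratin of basal and stem cells, had 976 and 952 RPKM in KO suprabasal against 1238 and 1272 in WT suprabasal libraries, and 1686 and 1651 in KO basal against 1834 and 1891 in WT basal libraries (interaction −0.22). Trp63, the master factor of stratified epithelia, had an interaction of −0.20 and Itga6, the integrin of the basement membrane contact, of −0.10, and both were lost under several alternative settings. Krt14 was not called (−0.09, adjusted p = 0.0676).

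Positive interactions of ribosomal, respiratory chain, proteasome and cell cycle genes were small, and the share called differed between the lists, against 14.4% of all genes tested. Of 75 ribosomal protein genes, 67 were positive and none negative, with a median of 0.18. Rps15 had 652 and 641 RPKM in KO suprabasal against 535 and 529 in WT suprabasal libraries, and 794 and 817 in KO basal against 812 and 830 in WT basal libraries. After quantile normalization 5 ribosomal genes were positive and 5 negative, so their direction depends on the scaling, and the positive count was 40 without WT suprabasal replicate 1, 40 without the intensity trend and 27 without the filter on low values. Respiratory chain genes had 32 of 63 positive and none negative, with 5 positive and 1 negative after quantile normalization, 12 positive without the filter, 17 without the intensity trend, and 20, 19 and 16 positive without WT suprabasal replicate 1, KO basal replicate 1 and WT basal replicate 2. Proteasome subunits had 20 of 31 positive, and 11 after quantile normalization. Of 46 S phase genes 16, and of 46 G2 and mitosis genes 10, were positive and none negative, with 8 and 3 without KO basal replicate 1 or without WT basal replicate 2, and 9 and 3 without the filter. The G2 and mitosis count was also 6 after quantile normalization and without KO suprabasal replicate 2 or WT suprabasal replicate 2. Mki67, the marker of cycling cells, was not called (−0.04, adjusted p = 0.605).

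**Figure D4:**
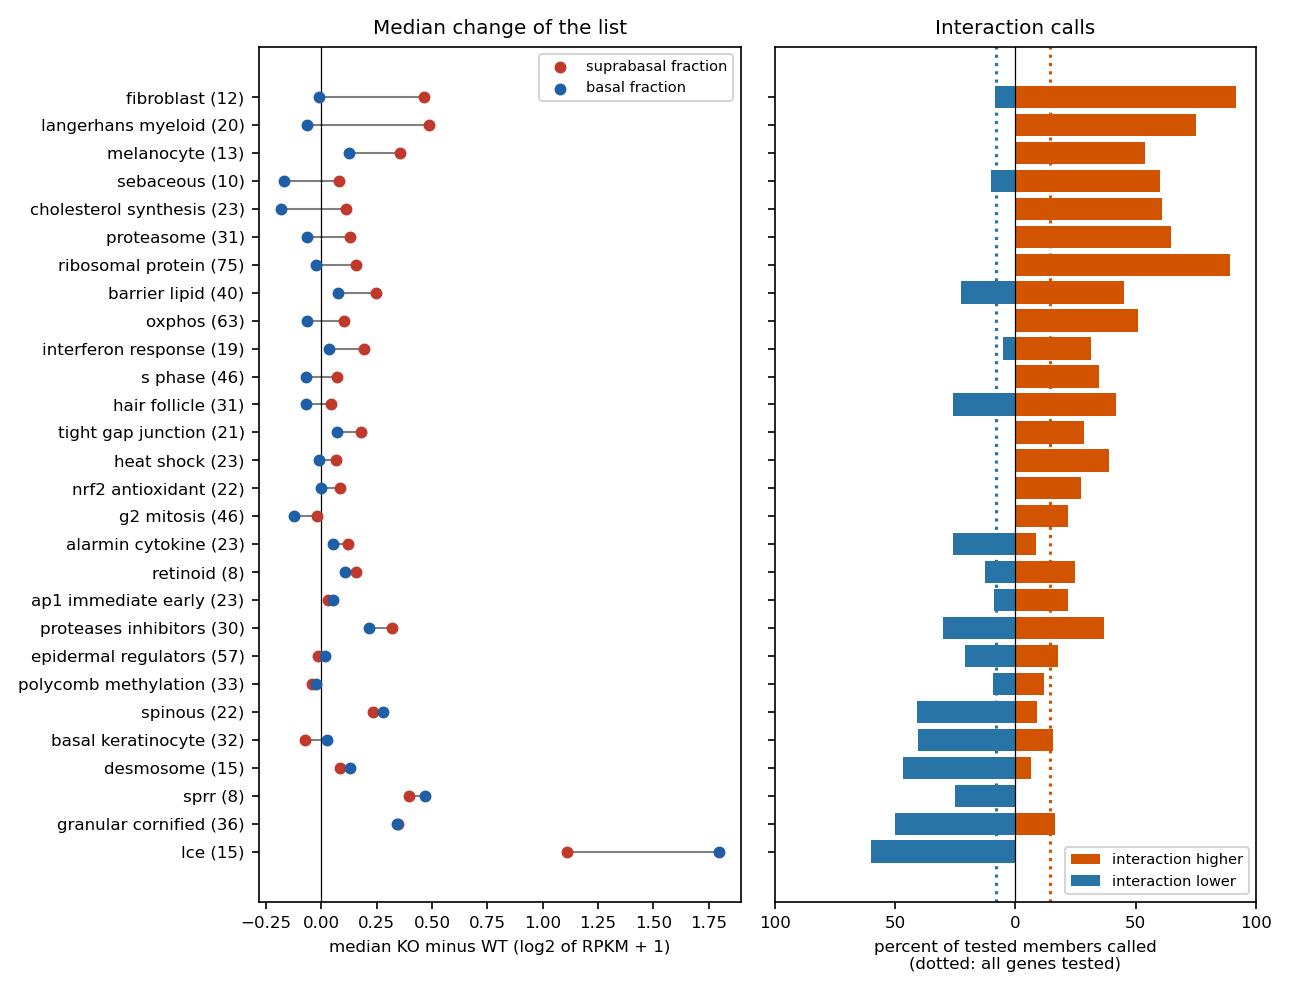
Left, the median KO minus WT change of each list with at least 8 genes tested (number in parentheses) in the suprabasal and in the basal fraction. Right, the percent of tested members with a positive or a negative interaction, with dotted lines at the shares over all genes (14.4% and 8.08%). The fibroblast and myeloid lists stand at the top and the Lce list at the bottom, where both fractions rose.

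**Figure D5:**
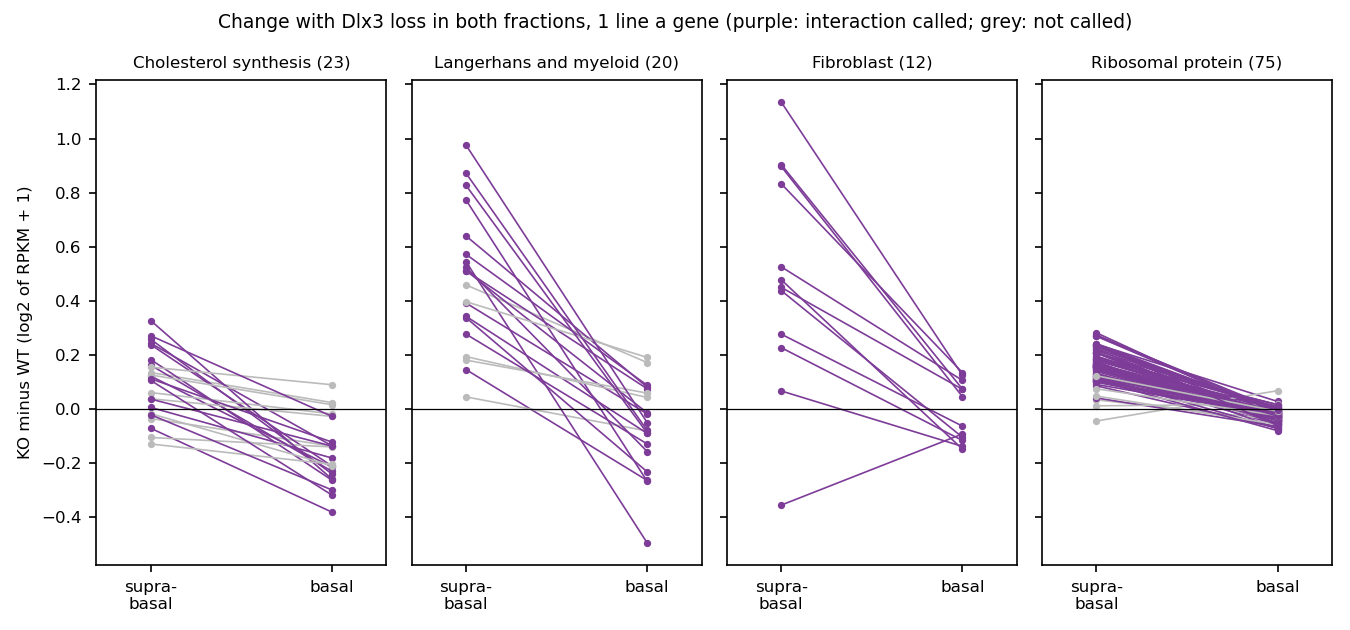
KO minus WT change (log2 of RPKM plus 1) of each gene in the suprabasal and the basal fraction, joined by a line, for 4 lists. Purple lines have a called interaction and grey ones do not. Many of the cholesterol synthesis genes run from above to below zero, and ribosomal genes form a narrow band.

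The counts of the lists that follow stand beside 14.4% positive and 8.08% negative interactions over all genes tested. Tight and gap junction genes had 6 positive and no negative calls among 21, Cldn4 among them. Proteases and inhibitors had 11 positive and 9 negative among 30, and the kallikreins were split, with Klk5 at 0.37 and Klk7 at −0.46. Interferon response genes had 6 positive and 1 negative among 19, among them Isg15 (0.47) and B2m (0.43). Alarmins and stress keratins had 2 positive and 6 negative among 23, with Krt6b at −0.73 and Krt17 at 0.28. The 6 negative calls were 2 to 5 when a library was left out, and each library other than KO suprabasal replicate 1 and KO basal replicate 1 moved the count by more than 1.5 times. Heat shock genes had 9 positive and none negative among 23, with 3 after quantile normalization, and antioxidant genes of the Nrf2 pathway 6 and none among 22, with 1 after quantile normalization and 2 to 4 when a library was left out (3 without either KO suprabasal library or KO basal replicate 2, 2 without KO basal replicate 1 or WT basal replicate 2). Retinoid genes had 2 positive and 1 negative among 8, and Polycomb and DNA methylation genes 4 and 3 among 33, a share near that of all genes, with 1 positive call without KO suprabasal replicate 1, WT suprabasal replicate 2 or WT basal replicate 2 and 2 without each of the other libraries apart from KO basal replicate 2 and WT basal replicate 1.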

How the data were processed

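Total RNA of the 8 libraries was processed by the authors to RPKM values for 24981 genes. Per the file headers, reads were mapped to mm10 with TopHat and RPKM were calculated in Partek, and the submitters' processing notes name TopHat2 2.1.1, bcl2fastq 2.20.0.422 and Partek. The gene annotation and the treatment of multiply mapped reads are not given in the sources used here, so values of near-identical genes are uncertain. Depth was estimated from the steps between low deposited RPKM values, which fell near whole reads for 59.9% to 62.6% of the values used, too few to recover counts.

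Tests covered the 12146 of 20838 genes above 0 whose level was at least 1 RPKM in 2 or more libraries. RPKM plus 1 was taken to log2, which understates the change of low genes, and the 4 group means were fitted with limma (3.58.1, under R 4.3.3) and its intensity trend. The fit had 4 residual degrees of freedom and 4.8 from the prior. A gene is called at a Benjamini-Hochberg adjusted p under 0.05 over all genes tested, and only called genes are said to rise or fall. Errors are standard errors of limma. In simulated data with planted interactions among 12146 genes, 36% of 1.2-fold, 84% of 1.5-fold, 94% of 2-fold and 98% of 4-fold ones were recovered, with 7 unchanged genes among 163 calls. The simulated noise had the spread of these library pairs, which may be technical. Only 50 genes were planted at each fold, while 22.5% of genes were called in the data. These rates therefore need not hold for the real calls.

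Same-numbered libraries of different groups had deviations from the group mean that correlated across genes at −0.05 to 0.06. These deviations were not far above what counting alone gives, so this cannot show whether same-numbered libraries were paired. The main fit used no pairing. Alternatives were another pseudocount, other filters, median-ratio rescaling, quantile normalization, no intensity trend, a replicate block, and each library left out.

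The members and the 34 lists were chosen with earlier results of these data known. Genes are named by rule: Dlx3, the 4 suprabasal markers and 8 layer and cycling genes; up to 12 called genes with the largest interaction in each direction and up to 6 of each opposite orientation, at a group mean of at least 5 RPKM, those with the largest interaction also with the same sign in all 16 choices of 1 library a group; and up to 3 members of each list with the smallest p. The rule leaves out predicted genes and olfactory receptors. A further 62 genes, among them Krt28, Flg2, Krt78, Hal, Smpd1, Lhx2 and Enpp1, were added after their values were seen. Flg is not analysed here. Python 3.11.15 with pandas 2.3.3, numpy 2.4.6 and matplotlib 3.10.9 made the figures.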

Additional observations from a re-analysis of the deposited data

Results flagged for a closer look

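The genes below are listed because the KO to WT change differed between the suprabasal and the basal fraction by a test of the difference itself (limma's interaction). Values are the log2 interaction on RPKM plus 1, and their part in other differences was not tested. Negative values, with a more positive change in the basal fraction, were found for Krt71 (−2.79), Krt27 (−1.21), Lor (−1.10), Serpinb3a (−0.98), Snord100 (−0.98), Snora16a (−0.97), Pla2g4f (−0.91), Lce1h (−0.89), Tchh (−0.87), Serpinb3b (−0.86), Ly6g6c (−0.86) and Cyp2b19 (−0.82). Snord100 and Snora16a are small nucleolar RNAs, which lie in introns of host genes, and their reads can be shared with the host. Of these, Snord100 lost its call under 8 of the 15 alternatives and Snora16a under 1.

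Positive values were found for Hist1h2af (2.097), Hbb-b2 and Hbb-bt (1.25 each), Hba-a2 (1.22), Chil1 (1.19), Hbb-bs (1.18), Sox18 (1.17), Hba-a1 (1.11), Hbb-b1 (1.08), C1qb (1.03), Col3a1 (1.01) and Tmem119 (1.002). Hist1h2af, a histone with near-identical copies, had 4.68 and 5.37 RPKM in KO suprabasal against 2.71 and 1.62 in WT suprabasal libraries, and 6.57 and 1.51 in KO basal against 8.85 and 8.5 in WT basal libraries. Its 2 KO basal libraries lay further apart than the 2 of any other group, and its call was lost under 7 of the 15 alternatives. Hbb-b1 lost its call with a pseudocount of 0.1 (adjusted p = 0.052).

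Opposite changes in the fractions gave positive values for Col14a1 (0.82), Fbln2 (0.77), Tbx1 (0.70), Laptm5 (0.69) and Serpinb7 (0.63). They gave negative values for Skint7 (−0.80), Ano7 (−0.68), Lgals4 (−0.68), Malat1 (−0.61), Perm1 (−0.52) and Neat1 (−0.49).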

How the results depend on the processing

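With 2 libraries a group, leaving 1 out assumes that the lone library varies like the other groups. Of 192 named genes, 139 kept their direction and their side of the threshold under all 15 alternatives. No called gene among them changed sign. Uncalled values that did were Cdsn (−0.18 with a pseudocount of 0.1), Smpd3 (0.04 with median-ratio rescaling, 0.078 with quantile normalization), Dlx4 (−0.011 to 0.161 with a library left out, lowest without KO basal replicate 1), Ivl (−0.216 to 0.055) and Mki67 (−0.088 to 0.012), both highest without WT basal replicate 2. The ranges of Dlx4, Ivl and Mki67 are over fits with a library left out, and with a pseudocount of 0.1 Ivl was at −0.477. Smpd3, at −0.045 and uncalled in the main fit, was called at −0.557 with that pseudocount (limma adjusted p = 0.0072). Over all genes, 92 of the 2737 calls changed sign with quantile normalization and 7 with a pseudocount of 0.1.

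The positive interactions were 1059 with quantile normalization. Genes lower in KO basal libraries were 228 without a filter, 215 with median-ratio rescaling and 225 with quantile normalization, and opposite genes 79 without a filter and 86 without the intensity trend. The causes were not tested. A replicate block gave 1718 positive, 936 negative and 125 opposite genes, and moved no count by over 1.5 times. With a library left out, positive calls ranged from 1043 to 1514, negative from 548 to 792, opposite from 45 to 92, suprabasal higher from 1841 to 2549 and lower from 1178 to 1818, and basal higher from 332 to 473 and lower from 117 to 324. On linear RPKM 76 of the 982 negative interactions (7.74%) have the other sign. RNA below 1 RPKM was not tested, and a response in a layer that lacks the RNA cannot be seen.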
